A study of Mus musculus with 2 samples.

Results

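The CXC chemokines are small secreted proteins that steer white blood cells, and 10 of their genes were followed here in macrophages of the mouse colon. The genes were Cxcl1, Cxcl2, Cxcl3, Cxcl5, Cxcl9, Cxcl10, Cxcl13, Cxcl14, Cxcl16 and Pf4. They were taken by gene symbol from the platform annotation, out of 19938 genes with a probe set (a group of probes summarised into 1 value) of their own, and each had exactly 1 such probe set. No probe set assigned to several genes named any of them.

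The series asked how macrophages of the inflamed colon differ from control macrophages. The control array held RNA from mice given plain drinking water, and the DSS array held RNA from mice given 3% (wt/vol) dextran sulfate sodium (DSS, a polysaccharide that damages the gut epithelium and brings on colitis), both for 5 days. On both arrays the RNA came from lamina propria cells (the connective tissue under the gut epithelium) sorted by flow cytometry as CD45+, IAb+, CD11b+, F4/80+ and CD103-. The labels used here give neither the strain nor the age of the mice, nor how many stood behind each array. With 1 array a group there is no replicate error, so every difference below compares these 2 arrays, with no test between the conditions.

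CXC chemokines carry a pair of conserved cysteines with a single residue between them, and they act through G protein-coupled receptors. The members with a Glu-Leu-Arg (ELR) triplet before the cysteines (Cxcl1, Cxcl2, Cxcl3, Cxcl5) bind CXCR2 and draw neutrophils, while Cxcl9 and Cxcl10 are induced by interferons and draw activated T and NK cells through CXCR3. In the gut, macrophages, epithelium and stroma all can make chemokines of this family.

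The deposited values are log2 signals after RMA (robust multi-array average), which corrects background, normalises the arrays and merges probes. The array medians were 5.70 (control) and 5.62 (DSS). A gene was counted when its signal reached the array's own median on 1 array or both, and 11163 genes were. Differences are log2 DSS minus log2 control, a fold is 2 to the power of that difference, and a gene was called at 2-fold. The median difference of the 11163 genes was -0.03, and their robust SD, which serves here as a yardstick of size and not as an error, was 0.39. The sort antigens were well above the medians on both arrays. Ptprc (CD45) read 11.54 and 11.94 in control and DSS, H2-Ab1 (IAb) 11.99 and 12.13, Itgam (CD11b) 9.59 and 10.19, and Adgre1 (F4/80) 11.65 and 10.82, while Itgae (CD103) was under both medians. Markers of other myeloid cells differed strongly between the arrays. Of 14 counted neutrophil markers 13 were at least 2-fold higher in DSS. Of these 13, 8 were under the control array's median and were counted only through the DSS array, and 5 were above both medians. The summed linear signal of all 15 listed neutrophil genes was 2097 in control and 34702 in DSS. RMA values have no 0, and Elane was the listed neutrophil gene under both medians. Of 8 monocyte markers 7 were higher (1 of them from under the control median) and 1 lower (sums of 4327 and 19283), and of 13 resident macrophage markers 0 were higher and 7 lower (sums of 25209 and 10765). The part of these shifts in the chemokine values was not tested.

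The CXC chemokines did not move as a block. Cxcl9 and Cxcl3 were higher on the DSS array by 2-fold or more, Pf4 and Cxcl13 were lower by 2-fold or more, and the other 5 counted members lay between. Of the 10 members, 9 were counted, and all 9 were above the medians of both arrays. Cxcl5 was under both. The 2 higher members compare with 3.99% of all counted genes at least 2-fold higher, and the 2 lower members with 3.03% at least 2-fold lower. Among genes past the median on both arrays these shares were 3.29% and 2.67%. The median difference of the 9 members was 0.12, with large differences of both signs on either side of it. That median was -0.06 under loess centring of the arrays, so it has no settled sign. The members nearest the 2-fold line were Cxcl13, just inside it at -1.10, and Cxcl10, just outside it at 0.999.

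**Figure D1:**
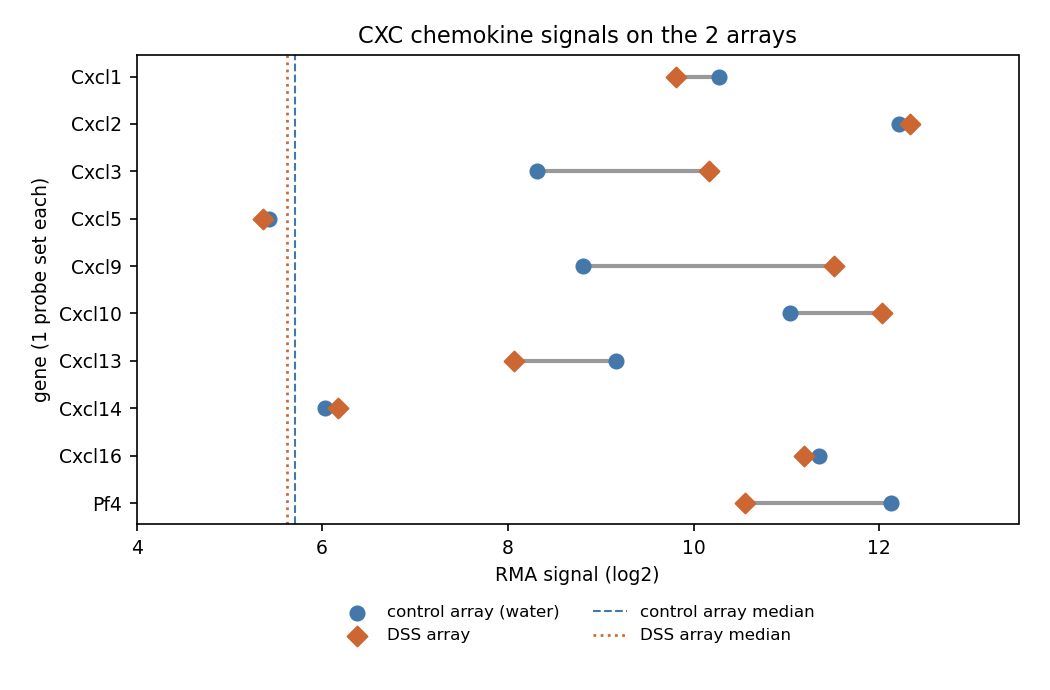
Log2 RMA signal (x axis) of each CXC chemokine (y axis), with blue circles for the control array and orange diamonds for the DSS array, with dashed and dotted lines at the array medians of 5.70 and 5.62 and 1 array per group. The long bars of Cxcl9 and Cxcl3 run to the right in DSS, those of Pf4 and Cxcl13 run to the left, and Cxcl5 sits under both medians.

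**Figure D2:**
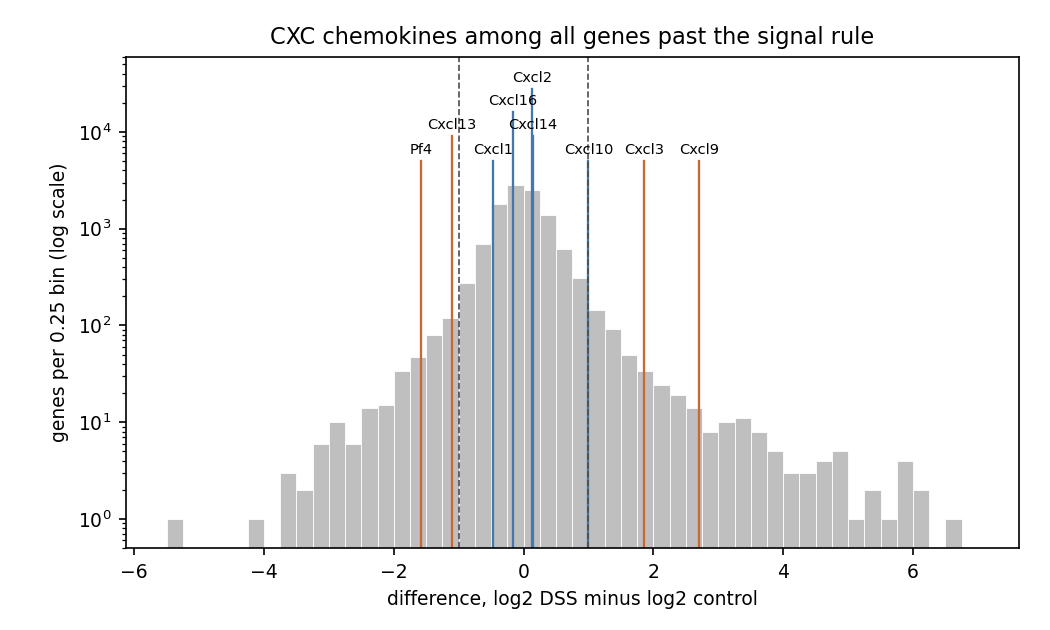
Histogram of the differences (log2 DSS minus log2 control, x axis) of the 11163 counted genes, with the number of genes per bin on a log y axis. Vertical lines mark the 9 counted CXC chemokines, orange for those past the dashed 2-fold lines and blue for the others. Cxcl9 lies in the right tail at 2.71, Pf4 in the left tail at -1.58, and Cxcl10 lies on the right dashed line.

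Among the neutrophil-attracting ELR chemokines, Cxcl3 stood apart from its close relatives. Cxcl3 (probe set 10523138), a CXCR2 ligand also known as DCIP-1, read 8.31 in control and 10.17 in DSS. This is a difference of 1.86, or 3.62-fold, and 140 of the 11163 genes had a higher one. Cxcl1 (probe set 10523151), the KC chemokine, went the other way within 2-fold, at 10.27 in control and 9.81 in DSS, a difference of -0.46. Cxcl2 (probe set 10523156), the chemokine MIP-2 that activated macrophages release, read 12.21 and 12.33, a difference of 0.12. Its sign turned under loess centring (-0.06), so no direction is given for it. Cxcl2 was thus strongly above the array median in the sorted cells of both groups, by 6.51 in control and 6.71 in DSS. Cxcl5 (probe set 10523120), the ELR chemokine LIX that epithelium and stroma are known to make, read 5.43 and 5.37, which cannot be told from background. The difference of Cxcl3 exceeded that of Cxcl1 by 2.32 and that of Cxcl2 by 1.73. These genes are paralogs with related sequences, and whether their probes are shared was not examined, since probe sequences were not used here. In RNA of a whole sorted population, fewer cells of a type and less RNA per cell cannot be told apart, which holds for every gene below. The neutrophil marker sum given above differed 16.6-fold between the same arrays, and its part in the Cxcl3 value was not tested.

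The 3 detected ELR genes among the 10 members hold a common run of promoter letters and had unlike differences. RefSeq promoter sequences (GRCm38.p6) were matched by symbol for 8 of the 10 members. The 250 bases before each start were searched on both strands for GGGNNNTTCC, which matches many binding sites of NF-kB, the factor that drives inflammatory genes. Cxcl1, Cxcl2 and Cxcl3 all hold the run GGGAATTTCC, starting 71, 97 and 73 bases before the start. Its opposite-strand match overlaps it by all but 1 base. That exact run was picked because these 3 promoters share it, so its share among all promoters is a description and no test. It occurs in 28 of 32851 promoters of the table (0.0852%), and GGGNNNTTCC in 4.65%. Each gene holds a further match, on the opposite strand in Cxcl1. The stretches of 100 bases that hold these matches are shown to let the genes be compared, 5' to 3' on the plus strand with every GGGNNNTTCC match of either strand in capitals. They lie at chr5:90891145-90891244 (Cxcl1), chr5:90903789-90903888 (Cxcl2) and chr5:90786001-90786100 (Cxcl3).
Cxcl1: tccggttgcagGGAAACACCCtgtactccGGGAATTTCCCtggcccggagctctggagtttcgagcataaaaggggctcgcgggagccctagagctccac
Cxcl2: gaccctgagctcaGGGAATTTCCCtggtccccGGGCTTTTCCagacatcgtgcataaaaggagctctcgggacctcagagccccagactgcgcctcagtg
Cxcl3: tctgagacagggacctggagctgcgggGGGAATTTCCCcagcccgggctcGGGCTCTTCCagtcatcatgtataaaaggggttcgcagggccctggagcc
A match is a description of letters and shows no binding. The genes that hold this common run had differences of -0.46, 0.12 and 1.86.

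Of the interferon-inducible CXCR3 ligands, Cxcl9 was past 2-fold higher on the DSS array and Cxcl10 fell just short of it. Cxcl9 (probe set 10531407), the chemokine MIG that is induced above all by interferon-gamma, read 8.81 in control and 11.52 in DSS. The difference of 2.71 (6.54-fold) was the largest of the 10 members, and 70 of all counted genes had a higher one. Cxcl10 (probe set 10531415), the chemokine IP-10 that interferons and NF-kB signals both induce, read 11.03 and 12.03. Its fold of 1.998 fell just short of 2-fold. It passed under median centring, at a difference of 1.08, and did not under loess centring, at 0.84. Its sign was the same under both. Cxcl10 started from a signal 5.33 above the control array's median and Cxcl9 from one 3.11 above it, and the difference of Cxcl9 exceeded that of Cxcl10 by 1.71. Cxcl11, the remaining CXCR3 ligand and outside the 10 members, read 5.85 in control and 7.68 in DSS (3.56-fold). RefSeq lists Cxcl11 as a transcribed pseudogene in the reference mouse strain. Its control signal lay just above the median.

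The promoters of Cxcl9 and Cxcl10 are shown because both are interferon-inducible CXCR3 ligands of the same gene cluster on chromosome 5. Of the pair, only Cxcl9 was past 2-fold with the values as deposited. A second form of the NF-kB letters (GGGNNTTCC, found in 4.98% of all promoters), the interferon-stimulated response element (GAAANNGAAA, 2.98%) and the interferon-gamma activated site (TTCNNNGAA, 7.02%) were searched in the same way, on both strands. In the Cxcl10 promoter, capitals mark a GAAANNGAAA match starting 213 bases before the start and matches of GGGNNNTTCC starting 159 and 104 bases before it. The last of these also contains a GGGNNTTCC match. Counted as the pair that Cxcl10 holds, GAAANNGAAA and GGGNNNTTCC occurred together in 36 of the 32851 promoters (0.110%). Each is uncommon by itself, so this share is a description and no test. In the Cxcl9 promoter, capitals mark GGGNNTTCC matches starting 130 and 42 bases before the start, and neither GGGNNNTTCC, GAAANNGAAA nor TTCNNNGAA was found in this window. Both sequences run 5' to 3' on the minus strand, over chr5:92328080-92328329 for Cxcl9 and chr5:92348890-92349139 for Cxcl10.
Cxcl9: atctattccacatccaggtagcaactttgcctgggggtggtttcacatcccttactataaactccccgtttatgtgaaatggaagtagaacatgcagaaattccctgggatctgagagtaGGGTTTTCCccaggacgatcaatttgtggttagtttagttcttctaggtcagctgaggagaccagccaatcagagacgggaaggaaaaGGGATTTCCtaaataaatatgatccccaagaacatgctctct
Cxcl10: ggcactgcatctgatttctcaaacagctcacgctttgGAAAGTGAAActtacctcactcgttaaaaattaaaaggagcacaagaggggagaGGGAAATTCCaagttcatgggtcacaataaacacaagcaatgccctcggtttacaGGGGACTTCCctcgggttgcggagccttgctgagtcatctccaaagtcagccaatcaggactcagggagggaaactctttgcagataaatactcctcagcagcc
The promoters of Cxcl13 and Pf4, the members that were lower in DSS, held no match to any of these motifs. Each motif is in 7.02% of all promoters or fewer, so holding none is the common case. Among the other CXC ligands, Ppbp (difference of -1.63), Cxcl12 (-0.36) and Cxcl15 (under both medians) held none either. Cxcl14 held 1 GAAANNGAAA and 1 TTCNNNGAA match beside a difference of 0.14.

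Pf4 was the member furthest below control. Pf4 (probe set 10523134), platelet factor 4 or Cxcl4, is stored in platelet granules and is also expressed by tissue macrophages. It read 12.13 in control and 10.55 in DSS, a difference of -1.58 or 2.98-fold lower, and 122 of all counted genes had a lower one. Even on the DSS array its signal was 4.93 above the median. Ppbp, its neighbour on chromosome 5 and also a platelet chemokine, read 9.14 in control and 7.50 in DSS and was 3.10-fold lower. Other genes that define platelets and megakaryocytes had low signals. The integrin Itga2b read 5.48 in control and 5.21 in DSS, and with Gp5 and Itgb3 it was under the medians of both arrays. Gp9, Treml1 and Clec1b were counted, with differences of -0.19, -0.39 and -0.35. Of the 4 counted genes on this marker list, Ppbp was the only one past 2-fold. Of the 13 resident macrophage markers, 7 were at least 2-fold lower, as Pf4 was, and 6 lay between. Their differences ran from -0.42 for Mertk, a receptor for dying cells, to -5.29 for Vsig4, a complement receptor. For 2 of the 7, Vsig4 among them, the DSS signal was under its array median and cannot be told from background. Their part in the Pf4 value was not tested.

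Cxcl13 was lower, and Cxcl14 and Cxcl16 lay close to their control values. Cxcl13 (probe set 10523359) is the chemokine that gathers B cells into follicles through CXCR5. It read 9.17 in control and 8.07 in DSS, a difference of -1.10 or 2.14-fold lower, and 282 of all counted genes had a lower one. It stayed past 2-fold under median centring (-1.02) and loess centring (-1.16). Stromal cells are a known source of Cxcl13, and the cells here were sorted as positive for CD45, IAb, CD11b and F4/80. The part of any stromal cells in the Cxcl13 value was not tested. Of the 13 resident macrophage markers, 7 were at least 2-fold lower and 0 higher. Their part in the Cxcl13 value was not tested either. None of the 6 counted fibroblast and endothelial markers was past 2-fold, with sums over the 10 listed genes of 1603 in control and 1490 in DSS. Among them Dcn, a matrix proteoglycan, read 9.66 and 9.08, and Lum, Pdgfra, Pdgfrb and Kdr were under both medians. Cxcl16 (probe set 10387890), a membrane-bound chemokine and scavenger receptor of macrophages, read 11.35 and 11.19, a difference of -0.16. Cxcl14 (probe set 10409579), a chemokine that epithelium and other tissues make constitutively, read 6.03 and 6.17. These lay 0.33 and 0.55 above the array medians, so its difference of 0.14 rests on signals that are hard to tell from background.

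The receptors of these chemokines were examined as a list. Of 5 counted CXC and atypical receptors 2 were at least 2-fold higher and 0 were lower. Cxcr2, which binds the ELR chemokines and marks neutrophils, read 5.55 in control and 11.37 in DSS. Cxcr1, a related receptor, read 5.32 and 6.44 (2.17-fold). Both started under the control array's median, so these folds begin from signals that cannot be told from background. Cxcr3, the receptor of Cxcl9 and Cxcl10, went furthest the other way, at 7.45 and 6.72. The Cxcl16 receptor Cxcr6 had a difference of 0.83. Cxcr5, the Cxcl13 receptor, and the atypical receptors Ackr1 and Ackr3, which take up chemokines without classical signalling, were under both medians. The higher Cxcr2 stood beside the neutrophil marker sums given above, a list that itself holds Cxcr2.

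Of the 4 counted CXC ligands outside the 10 members, 1 was higher (Cxcl11) and 1 lower (Ppbp). Cxcl12 read 6.44 and 6.08, Cxcl17 read 6.02 and 6.09, and Cxcl15 was under both medians.

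Genes of the signals that induce these chemokines were examined as lists. Of 10 counted interferon-gamma signalling genes 1 was at least 2-fold higher and 0 were lower, with a median of 0.29. The kinase Jak2 read 9.55 in control and 10.63 in DSS, a difference of 1.08 that was 0.96 under loess centring. Irf1, a transcription factor induced by interferon, had a difference of 0.84, and Socs1, a feedback inhibitor, one of -0.26. Ifng itself was under both medians. Of 15 counted genes of NF-kB signalling and mRNA decay 0 were past 2-fold with the values as deposited, with a median of 0.11. Their differences ran from -0.15 (Relb) to 0.97 (Ikbkb, a kinase that releases NF-kB). Ikbkb was past 2-fold under median centring, at 1.06. Of 4 counted genes of IL-17 and IL-1 reception 2 were higher. Il1rap, the shared subunit of IL-1 family receptors, read 5.70 and 8.45, and Il17ra, an IL-17 receptor chain, read 8.60 and 9.71. The control signal of Il1rap lay at the array median, so its difference starts from a signal that is hard to tell from background. Il17rc had a difference of -0.18. Of 10 genes for proteases and glycan carriers that cleave or hold chemokines 3 were higher, namely Mmp8 (6.65), the syndecan Sdc1 (1.31) and Mmp9 (1.20), each given as its difference. Mmp8 read 4.82 in control, under that array's median, so its difference starts from a signal that cannot be told from background. Sdc1 read 6.15 in control, 0.44 above that median, so its difference starts from a signal that is hard to tell from background. Mmp2 was furthest the other way at -0.99, and it reached -1.003 under loess centring. Adam10 and Adam17, which shed Cxcl16 from the membrane, had differences of 0.34 and 0.17. Mmp8 and Mmp9 are also on the neutrophil marker list, whose part in these values was not tested.

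**Figure D3:**
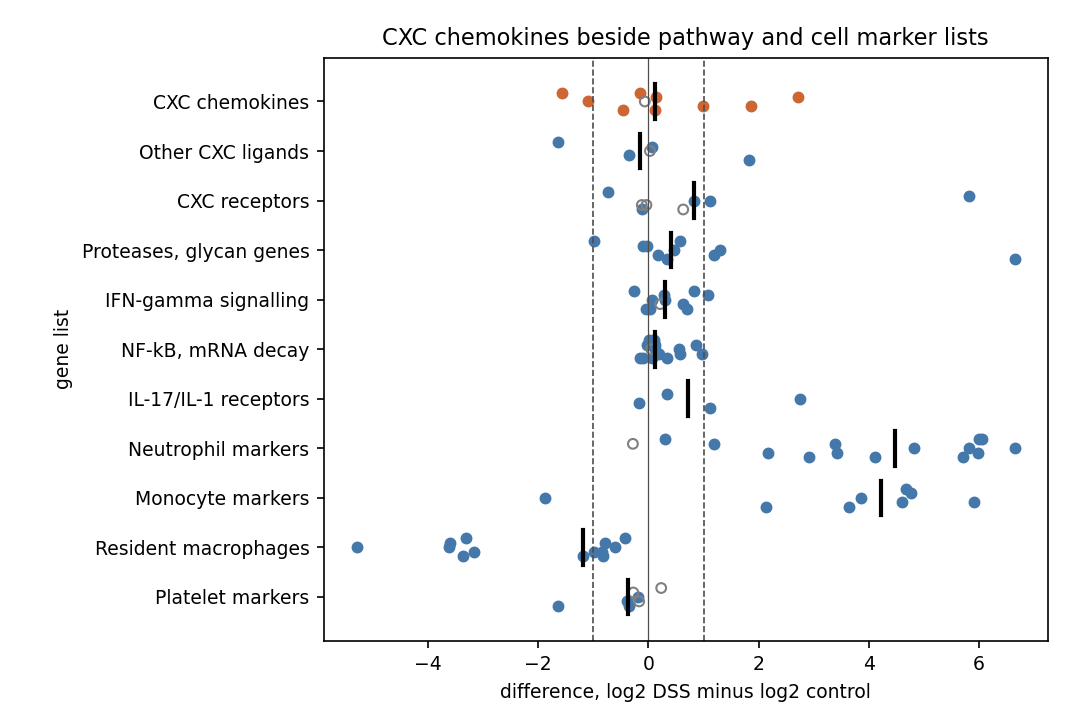
Differences (log2 DSS minus log2 control, x axis) of the genes of each list (y axis), with 1 point per gene, filled where the gene was counted and open where it was under both array medians. Black bars are list medians over counted genes and dashed lines mark 2-fold. The CXC chemokines spread to both sides of 0, while neutrophil markers lie mostly at the right and resident macrophage markers all lie left of 0.

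Most members lie in gene clusters, and neighbours in a cluster did not all differ alike. RefSeq places 8 of the 10 members on chromosome 5, Cxcl16 on chromosome 11 and Cxcl14 on chromosome 13. The order of the first group on chromosome 5 is Cxcl5, Ppbp, Pf4, Cxcl3, Cxcl15, Cxcl1 and Cxcl2. Within these 7 neighbouring genes, the adjacent Ppbp and Pf4 were lower by 1.63 and 1.58 on the log2 scale, and the next gene, Cxcl3, was higher by 1.86. The second group holds Cxcl9, Cxcl10 and Cxcl11, with differences of 2.71, 0.999 and 1.83. Art3, which lies between Cxcl9 and Cxcl10 in gene order, was under both medians at 4.07 and 4.18.

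**Figure D4:**
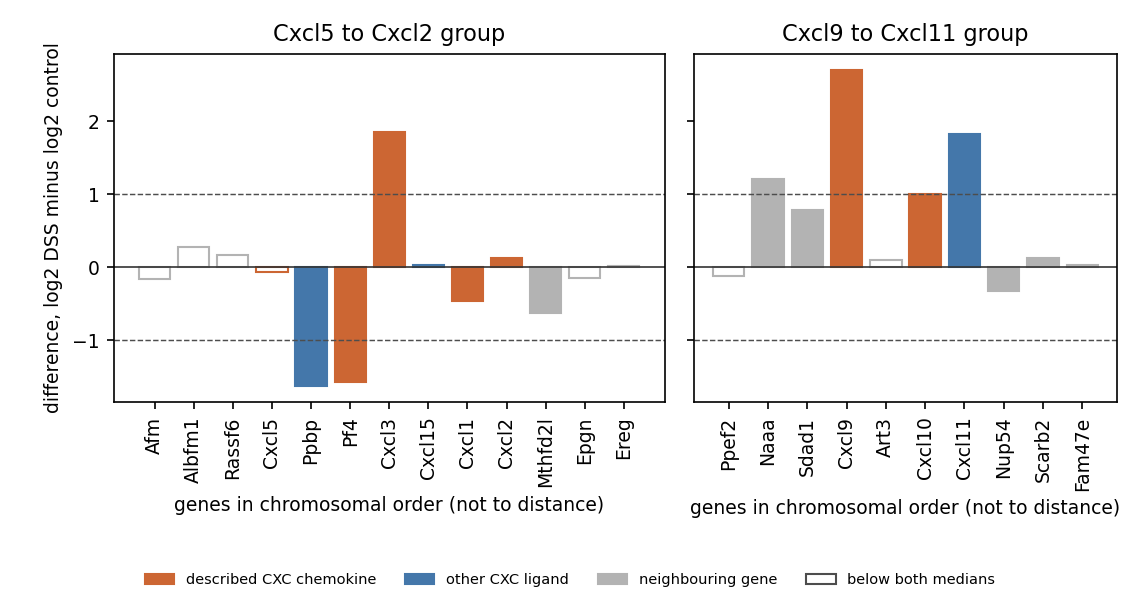
Differences (log2 DSS minus log2 control, y axis) of CXC genes and their nearest measured neighbours in chromosomal order (x axis, not to distance) for both groups of CXC genes on chromosome 5. Orange bars are the described chemokines, blue bars other CXC ligands, grey bars neighbours, open bars genes under both array medians, and dashed lines mark 2-fold. Cxcl3 stands at 1.86 directly beside Pf4 at -1.58, and all CXC genes of the Cxcl9 to Cxcl11 group lie above 0.

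The scaling of the arrays moved the members by small amounts. Across median and loess centring, Cxcl9 lay between 2.59 and 2.79, Cxcl3 between 1.77 and 1.94, and Pf4 between -1.73 and -1.49. Cxcl1 lay between -0.58 and -0.38 and Cxcl16 between -0.32 and -0.08. The signs of Cxcl2 and Cxcl5 turned, and Cxcl10 changed its side of the 2-fold line.

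**Figure D5:**
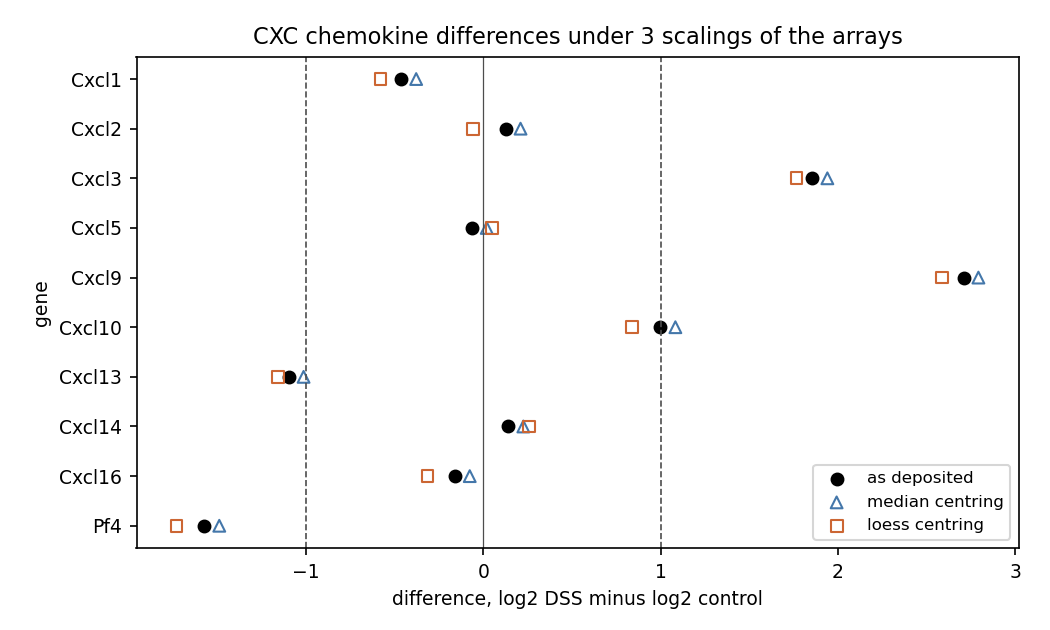
Difference (log2 DSS minus log2 control, x axis) of each CXC chemokine (y axis) with the values as deposited (black circles), after median centring (triangles) and after loess centring (squares), with dashed lines at 2-fold. Cxcl2 and Cxcl5 have points on both sides of 0, and Cxcl10 has points on both sides of the right dashed line.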

How the data were processed

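The 2 arrays were those of the control and the DSS group, with 100 ng of total RNA labelled for each, per the labels' protocols. The authors deposited log2 signals for 35556 probe sets. RMA is named in the submitters' processing notes, and no version, settings or build are named in the sources used here. RMA compresses differences of dim probe sets, and a batch of scanning or hybridisation cannot be told apart from the treatment. Array medians rest on 28939 probe sets, leaving out identifiers below the lowest annotated one. The annotation names 1 gene for 21789 probe sets, several for 1621 and none for 12146, and only the first kind was used. Where a gene had several, the brightest on average was taken.

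The members, lists and named genes were chosen with earlier results of these data known. Every member is named, and of each list of pathway genes those past 2-fold plus the one furthest the other way. Further list genes were named after their values were seen. Probe sets of the same gene differed with a pooled SD of 0.28 over 638 genes, a measure of probe noise alone. Alternatives were median centring, loess centring (span 0.4), another probe set or their mean, shared probe sets, a floor at the 25th percentile, other signal rules and folds of 1.5 and 3. The steps were tested on simulated data. Python 3.11.15, numpy 2.4.6, pandas 2.3.3, statsmodels 0.14.6 and matplotlib 3.10.9 were used.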

Additional observations from a re-analysis of the deposited data

How the results depend on the processing

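The count of 2 members lower in DSS changed to 0 when 3-fold was asked for, since Pf4 was 2.98-fold lower, while 2 remained higher. At 1.5-fold 3 were higher and 2 lower. Median centring gave 3 higher and 2 lower, with Cxcl10 added, and loess centring 2 and 2. Other probe sets, shared probe sets and the floor left every member's value as it was, since each has 1 probe set and lies above the floor. The median of the members ranged from -0.06 (loess centring) to 0.21 (median centring), and was 0.03 with no signal rule, where Cxcl5 enters. No called member changed sign under any alternative run. Over all genes, 1100 were higher and 982 lower at 1.5-fold, and 183 and 118 at 3-fold, against 445 and 338 at 2-fold. No paired analysis was possible because each group has 1 array. The number of arrays limits the precision, and Cxcl5 and Cxcl14 lie too near the array medians for a difference to be read.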

Other observations

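Genes that lie beside the CXC groups on chromosome 5 without belonging to the family were read after the chemokine values were seen. Beside Cxcl9, Naaa, which encodes a lysosomal enzyme that degrades fatty acid ethanolamides, read 8.35 and 9.56 in control and DSS (2.31-fold higher), and Sdad1 had a difference of 0.79. On the other flank of that group, Nup54, a nuclear pore gene, had a difference of -0.32 and Scarb2, a lysosomal membrane protein, one of 0.12. Beside Cxcl2, Mthfd2l, a mitochondrial folate enzyme, read 6.10 and 5.47, and the growth factor genes Epgn and Ereg were under both medians. Near Cxcl13, Ccng2, a cyclin linked to growth arrest, was 2.63-fold higher, opposite in sign to Cxcl13. Gm7982, which lies between them in gene order, was under both medians. On the other side of Cxcl13, Cnot6l had a difference of -0.20, of the same sign, and Mrpl1 one of 0.12.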
